A study of Mus musculus with 12 samples.

Results

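The 31 genes described here are established transcriptional targets of p53, taken by name from a fixed list that leaves out Cdkn1a and Gadd45a, and they make up 31 of the 37991 gene identifiers counted. All 31 passed the filter on low counts, so every member was among the 16163 genes tested. The RNA came from embryonic fibroblasts of the mouse at day 6 of adipogenesis, and its poly(A) fraction was sequenced in 12 libraries, 3 for each of 4 genotypes. WT embryos carried neither mutation, the Gadd45a-KO and Ing1-KO groups are labelled as deficient for Gadd45a or Ing1, and DKO is labelled as Gadd45a-/-;Ing1-/-. Cells of every group were C57BL/6N, were isolated from male E15.5 embryos and grown for 4 passages. Adipogenesis was induced after confluence for 48 h with insulin (10 µg/ml), the PPARγ agonist rosiglitazone (2 µM), the glucocorticoid dexamethasone (1 µM) and the phosphodiesterase inhibitor IBMX (0.5 mM), and insulin was kept on afterwards. No group is labelled as treated with a p53-activating agent, so the levels below are those of differentiating cultures. Whether the replicates of a genotype are different embryos or cultures is not given in the labels, so a p-value here reflects only library-to-library spread, which may be technical.

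p53 is a transcription factor that is kept low by the ubiquitin ligase MDM2 and is stabilised after DNA damage and other stresses. It binds pairs of a short palindromic decamer near its target genes, which act in cell cycle arrest, apoptosis, DNA repair, metabolism and the feedback that ends the response. Gadd45a is itself a p53 target with roles in DNA repair and demethylation. ING1, a reader of histone H3 methylation found in a deacetylase complex, has been described as a partner of p53. Embryonic fibroblasts are a standard cell for studying p53, because they enter senescence in culture through p53 and the Cdkn2a locus.

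Promoters are shown here because the members share p53 as a regulator, and because the members called higher in Ing1-KO can then be set beside members with a p53 decamer. The sequences are RefSeq's for GRCm38.p6, a later build than the one behind the counts. RefSeq promoters, from 250 bases before to 50 bases after a start site, were found for 23 of the 31 members, with 29 promoters among them. Not matched were Rrm2b, Ddb2, Xpc, Tnfrsf10b, Trp53inp1, Zmat3, Perp and Pmaip1. A full match to the p53 decamer consensus, whose sequence reads the same on both strands, was present in 10 of the 29 promoters (34.5%), which belong to 9 of the 23 genes: Bax, Aen, Ei24, Rps27l, Sesn1, Mdm2, Ccng1, Ppm1d and Polk. Of all 32851 promoters of the same length, 8.36% held one. A pair of decamers at most 13 bases apart, with at most 1 mismatch over the pair, was present in Ccng1 and Rps27l, or 6.9% of the members' promoters against 0.627% of all. No other motif was searched. The 5 windows below are 100 bases each, read 5′ to 3′ on the gene's own strand, with the decamer in capitals, or the pair of decamers in Ccng1 and Rps27l. They lie at chr10:41887231-41887330 on the plus strand for Sesn1, chr11:40755417-40755516 on the minus strand for Ccng1, chr9:66946261-66946360 on the plus strand for Rps27l, chr7:45467035-45467134 on the minus strand for Bax and chr10:117710880-117710979 on the minus strand for Mdm2.
Sesn1: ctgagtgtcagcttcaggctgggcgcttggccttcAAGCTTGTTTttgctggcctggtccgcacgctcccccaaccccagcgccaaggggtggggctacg
Ccng1: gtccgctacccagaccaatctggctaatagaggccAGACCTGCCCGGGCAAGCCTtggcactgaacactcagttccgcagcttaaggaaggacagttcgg
Rps27l: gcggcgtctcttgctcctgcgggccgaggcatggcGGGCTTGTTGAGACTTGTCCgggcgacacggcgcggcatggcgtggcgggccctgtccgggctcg
Bax: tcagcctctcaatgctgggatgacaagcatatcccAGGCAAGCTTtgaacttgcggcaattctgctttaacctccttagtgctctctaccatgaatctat
Mdm2: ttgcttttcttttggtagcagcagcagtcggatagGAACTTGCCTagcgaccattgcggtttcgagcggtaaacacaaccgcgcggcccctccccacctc

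The next 3 sequences are the 250 bases before the start sites of Phlda3 (chr1:135765835-135766084, plus strand), Pidd1 (chr7:141444026-141444275, minus strand) and Ercc5 (chr1:44147494-44147743, plus strand), the members called higher in Ing1-KO. They are in lower case because no full decamer is in these windows.
Phlda3: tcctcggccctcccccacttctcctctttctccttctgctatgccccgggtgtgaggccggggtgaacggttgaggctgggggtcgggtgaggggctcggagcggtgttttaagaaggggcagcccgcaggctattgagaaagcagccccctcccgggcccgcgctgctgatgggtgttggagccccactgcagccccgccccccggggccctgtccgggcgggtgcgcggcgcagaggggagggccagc
Pidd1: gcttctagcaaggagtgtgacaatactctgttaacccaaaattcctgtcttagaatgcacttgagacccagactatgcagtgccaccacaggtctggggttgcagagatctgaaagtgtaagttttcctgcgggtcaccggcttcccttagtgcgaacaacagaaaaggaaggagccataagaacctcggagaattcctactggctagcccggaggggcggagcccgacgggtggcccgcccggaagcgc
Ercc5: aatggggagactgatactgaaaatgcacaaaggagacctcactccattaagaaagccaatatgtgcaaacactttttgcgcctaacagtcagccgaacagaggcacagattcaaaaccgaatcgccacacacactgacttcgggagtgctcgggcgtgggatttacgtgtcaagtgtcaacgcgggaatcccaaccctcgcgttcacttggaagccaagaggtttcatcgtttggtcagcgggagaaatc
Of the 8 members called in any comparison, Sesn1 alone held a full decamer in the window, Pmaip1 was not matched, and Btg2, Fdxr and Dram1 held none. Lacking one was common, as 9 of the 23 matched genes held one. Among those with a decamer, Mdm2, Ccng1, Bax, Ei24, Rps27l and Sesn1 had every Ing1-KO library above every WT library, without being called there. A match is a description of the letters and not evidence of binding, and sites outside these windows were not searched.

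Gene reads per library ranged from 42891627 to 52860419. The targeted genes were read first: Ing1 stood at 43.6 to 47.9 CPM (TMM-scaled counts per 1e6 gene reads) in the 6 libraries labelled WT or Gadd45a-KO and at 0.681 to 1.60 CPM in the other 6. Gadd45a went against its label: the libraries labelled Gadd45a-KO and DKO held 138 to 144 CPM, and the other 6 held 13.4 to 18.4 CPM. Which exons those reads cover cannot be seen from gene counts, and both groups are called below by the names on their labels. Within the libraries labelled Gadd45a-KO, replicate 1 stood apart. It was the highest of its group for 24 of the 31 members and the highest of all 12 libraries for 9, and results that turn on it are given without it. Its cell type markers differed too: 10 macrophage and leukocyte markers summed to 571 CPM, the lowest of all 12 libraries, against 1395 and 1287 CPM in replicates 2 and 3. Their part in its member levels was not tested. Fibroblast markers (10 genes) summed to 54463 to 58987 CPM in WT, 53257 to 54651 CPM in Gadd45a-KO and 54153 to 56280 CPM in Ing1-KO. In DKO they summed to 47688 to 52371 CPM, below every WT library. Of the 10, only Pdgfra was called in DKO against WT, and only Thy1 in Ing1-KO against WT, both lower. The 5 endothelial markers summed to at most 7.36 CPM. In such bulk cultures, fewer cells of a type and less RNA per cell cannot be told apart.

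Expressed per kilobase of exon (RPKM), the members covered a wide range of levels in WT. Ccng1, which encodes the cyclin G1 that tethers a phosphatase to MDM2, was highest at 157 RPKM, followed by Rps27l, a ribosomal protein homologue, at 99.3 RPKM, Phlda3, a repressor of AKT signalling, at 75.9 RPKM and Bax, the mitochondrial pore-forming apoptosis effector, at 61.6 RPKM. At the other end stood Rrm2b, the p53-induced ribonucleotide reductase subunit, at 1.85 RPKM, Ddb2, which recognises ultraviolet lesions, at 1.55 RPKM and the desmosome-associated Perp at 1.49 RPKM. Most members differed little among the 12 libraries. The ratio of the highest to the lowest library ran from 1.16 in Ei24 to 3.01 in Perp, with Pmaip1 at 2.35 and Sesn1 at 2.03 next to it. Summed over the 31 members, levels were 2372 to 2447 CPM in WT, 2328 to 2741 CPM in the libraries labelled Gadd45a-KO, 2577 to 2654 CPM in Ing1-KO and 2483 to 2585 CPM in the libraries labelled DKO. Both the Ing1-KO and the DKO sums lay above all WT sums, and the 2741 CPM belonged to replicate 1 of its group.

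**Figure D1:**
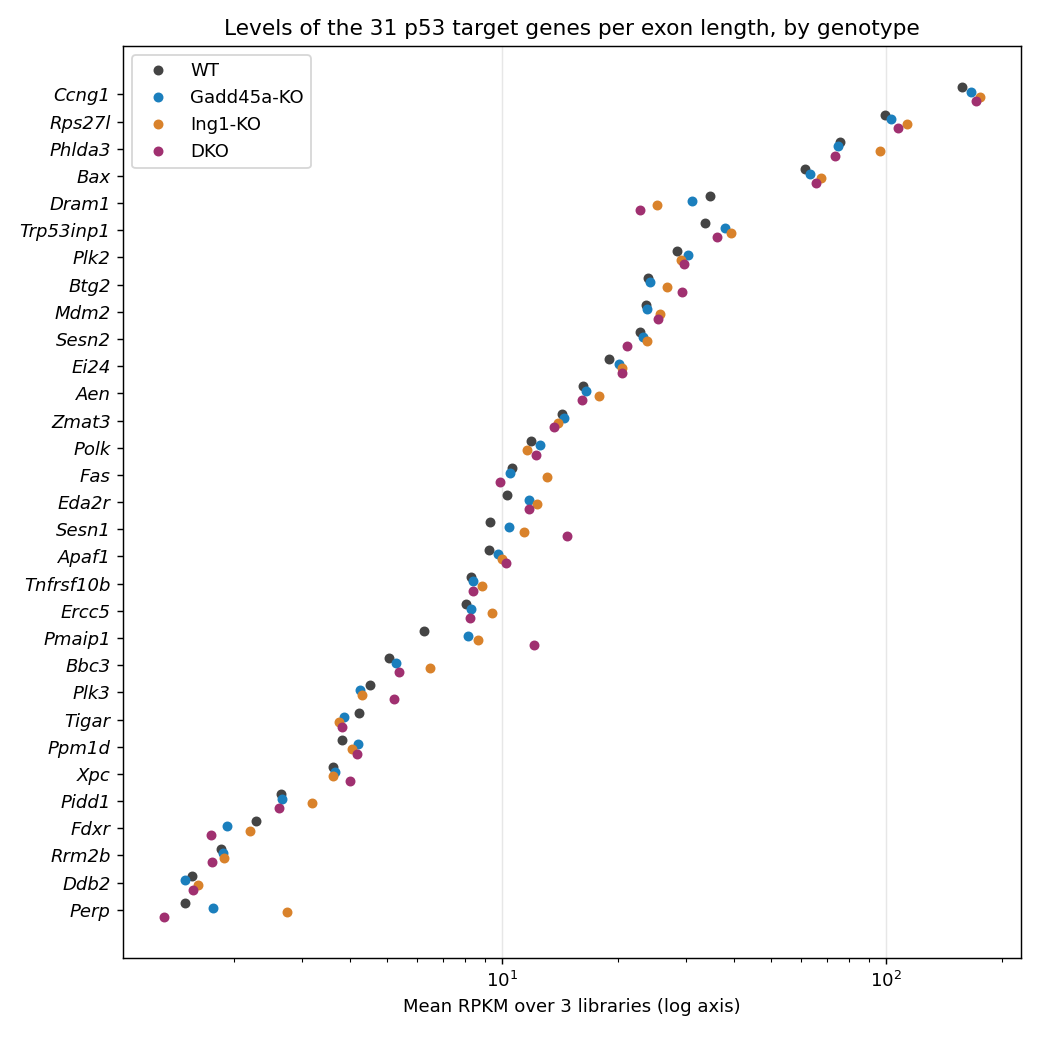
Level of each of the 31 genes per kilobase of exon (RPKM, log axis) in each genotype, as the mean of 3 libraries, ordered by the WT level. The order runs from Ccng1 at 157 RPKM to Perp at 1.49 RPKM in WT, and the 4 genotypes lie close together for most genes.

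None of the genes most used as readouts of p53 activity, Mdm2, Ccng1, Bax, Bbc3 and Cdkn1a, was called by edgeR in any comparison of the 12 libraries, and neither was Trp53. Mdm2 (ENSMUSG00000020184), the ubiquitin ligase that degrades p53, was at 115, 118 and 127 CPM in WT replicates 1 to 3, at 125, 116 and 122 CPM in Gadd45a-KO, at 134, 129.6 and 129.6 CPM in Ing1-KO and at 134, 129 and 124 CPM in DKO. The 3 Ing1-KO libraries lay above all WT libraries, and those of the other 2 groups overlapped WT. Its log2 fold change was 0.13 ± 0.0451 (SE) in Ing1-KO and 0.10 ± 0.0451 in the libraries labelled DKO, with edgeR adjusted p of 0.138 and 0.154. Ccng1 (ENSMUSG00000020326) was at 547, 546 and 565 CPM in WT, at 649.6, 536 and 565 CPM in Gadd45a-KO, at 600.1, 628 and 618 CPM in Ing1-KO and at 632, 586 and 584 CPM in DKO. Both the Ing1-KO and the DKO libraries lay above all WT libraries, without passing the test (adjusted p = 0.189 and 0.239).

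Bax (ENSMUSG00000003873) was at 94.4, 98.9 and 97.9 CPM in WT, at 102, 96.2 and 99.9 CPM in Gadd45a-KO, at 101, 106 and 114 CPM in Ing1-KO and at 100.03, 109.6 and 100.3 CPM in DKO. Bbc3 (ENSMUSG00000002083), which encodes the BH3-only protein PUMA, was at 11.5, 10.3 and 10.5 CPM in WT, at 13.2, 10.9 and 9.45 CPM in Gadd45a-KO, at 12.7, 13.8 and 14.7 CPM in Ing1-KO and at 11.9, 10.8 and 11.6 CPM in DKO. For both genes the Ing1-KO libraries lay above the WT range. The DKO libraries lay above it as well for Bax, and for Bbc3 2 of the 3 did. Log2 fold changes in Ing1-KO were 0.14 ± 0.0512 for Bax (adjusted p = 0.153) and 0.35 for Bbc3 (adjusted p = 0.0942). Without Gadd45a-KO replicate 1, Bbc3 was called higher in Ing1-KO against WT (adjusted p = 0.0274) and lower in DKO against Ing1-KO (adjusted p = 0.0421). Trp53, the gene for p53, averaged 91.2 ± 2.35 CPM (SD, n = 3) in WT, 91.6 ± 0.739 CPM in Gadd45a-KO, 87.5 ± 8.45 CPM in Ing1-KO and 85.6 ± 1.498 CPM in DKO. Its DKO libraries, at 84.2, 87.2 and 85.3 CPM, lay below every WT and every Gadd45a-KO library, and the log2 difference from WT was -0.09 (adjusted p = 0.323). p53 activity is set largely at the protein level, which was not measured. Mdm4, the MDM2 relative that masks the p53 activation domain, had group means between 65.9 and 68.0 CPM. Cdkn1a, which encodes the CDK inhibitor p21, had WT libraries averaging 435 ± 15.2 CPM and Ing1-KO libraries averaging 503 ± 33.1 CPM, a log2 difference of 0.21 (adjusted p = 0.0986), and 447 ± 34.95 CPM in the libraries labelled DKO.

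**Figure D2:**
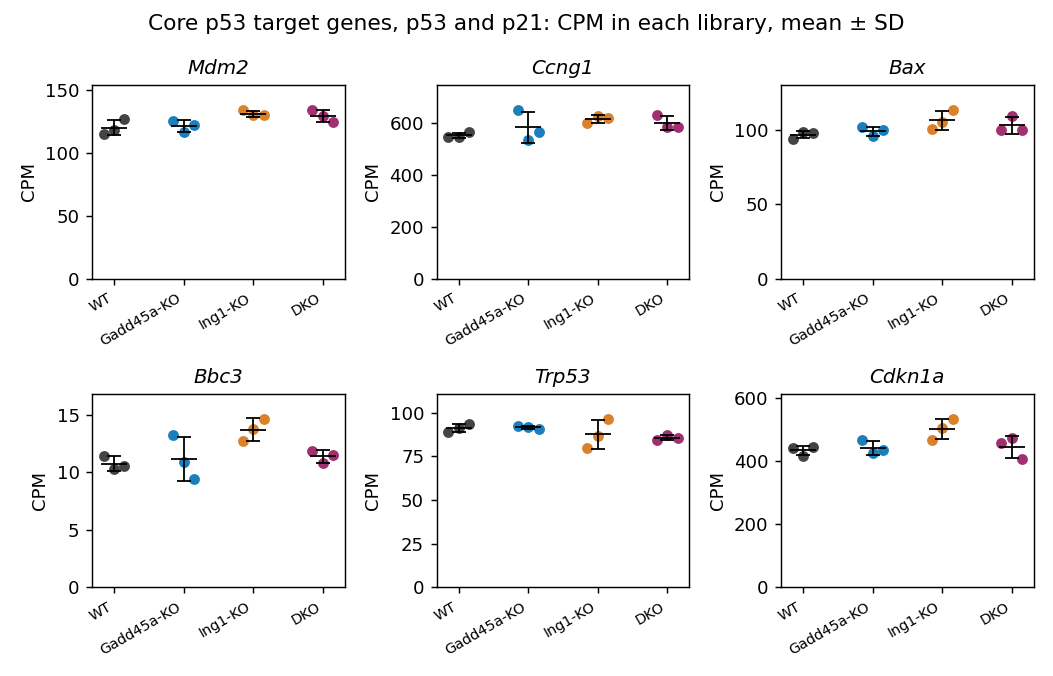
CPM of Mdm2, Ccng1, Bax, Bbc3, Trp53 and Cdkn1a in each of the 12 libraries (points), with the mean and SD of the 3 libraries of a genotype (bars); each axis starts at 0. Ing1-KO libraries sit above the WT libraries for Mdm2, Ccng1, Bax, Bbc3 and Cdkn1a, by small amounts against the level of each gene.

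Ing1-KO against WT asks which members change when Ing1 alone is disrupted. With edgeR, Phlda3, Pidd1 and Ercc5 rose and no member fell, so 9.68% of members were called, where 4.32% of all tested genes were called (2.4% higher and 1.92% lower). Phlda3 (ENSMUSG00000041801) was at 121, 113 and 121 CPM in WT, at 134, 108 and 109 CPM in Gadd45a-KO, at 149.8, 154 and 147 CPM in Ing1-KO and at 113, 125 and 107 CPM in DKO. Pidd1 (ENSMUSG00000025507), the death-domain protein that activates caspase-2, was at 11.9, 11.3 and 12.8 CPM in WT, at 12.3, 12.0 and 12.0 CPM in Gadd45a-KO, at 13.6, 14.5 and 15.3 CPM in Ing1-KO and at 11.3, 12.4 and 11.8 CPM in DKO. Ercc5 (ENSMUSG00000026048), the XPG endonuclease of nucleotide excision repair, was at 47.1, 46.0 and 48.0 CPM in WT, at 52.9, 45.6 and 47.0 CPM in Gadd45a-KO, at 54.8, 56.5 and 54.1 CPM in Ing1-KO and at 50.2, 45.6 and 49.0 CPM in DKO. All 3 genes share one shape: the Ing1-KO libraries are the highest 3 of the 12, and the other genotypes overlap. The log2 fold changes were 0.35 ± 0.0806 (adjusted p = 0.0389), 0.27 ± 0.0654 (0.0425) and 0.23 ± 0.0564 (0.0459), close to the 0.05 threshold.

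Smaller differences ran through much of the list. In 17 of 31 members (54.8%) every Ing1-KO library lay above every WT library, against 14.2% of all tested genes, and in 2 members, Dram1 and Tigar (6.45%), every one lay below, against 12.5% of all genes. The 17 span the roles: Mdm2 and Ccng1 of the feedback, Bax, Bbc3, Phlda3, Trp53inp1, Ei24 and Perp of the death programme, the receptors Eda2r and Tnfrsf10b, the caspase activators Apaf1 and Pidd1, Btg2, Sesn1, the repair genes Ercc5 and Ddb2, and the ribosomal protein homologue Rps27l. The median log2 fold change was 0.127 over the members and 0.003 over all genes, and 24 of 31 were positive. At an unadjusted p under 0.05 stood 16 of the 31 members, against 3384 of 16163 genes (20.9%). The tumour suppressor Dram1, a lysosomal autophagy factor, had a log2 difference of -0.46 (adjusted p = 0.0725), and Tigar, a fructose-bisphosphatase that diverts glucose from glycolysis, one of -0.17 (adjusted p = 0.0711). Dram1 was called lower by DESeq2, which called 4 members, and by edgeR without Ing1-KO replicate 1. The count of 3 depends on single libraries. It was 0 without any one of the 3 WT libraries, without Gadd45a-KO replicate 3, Ing1-KO replicate 2 or DKO replicate 1, 1 without DKO replicate 3, and 8 without Gadd45a-KO replicate 1, while the median stayed between 0.109 and 0.144 under every setting run. Adipocyte markers (10 genes, 0 called with edgeR and 1 at an unadjusted p under 0.05) summed to 1803 to 3568 CPM in WT and to 3217, 1099 and 393 CPM in Ing1-KO replicates 1 to 3, and macrophage markers (10 genes, 0 called and 0 at that unadjusted p) to 904 to 1037 and 1027 to 1163 CPM. Cartilage markers summed to 37.1 to 39.6 CPM in WT and, in Ing1-KO, to 69.8 to 124 CPM, with 3 of 5 called higher. The part of these cell types in the differences was not tested.

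**Figure D3:**
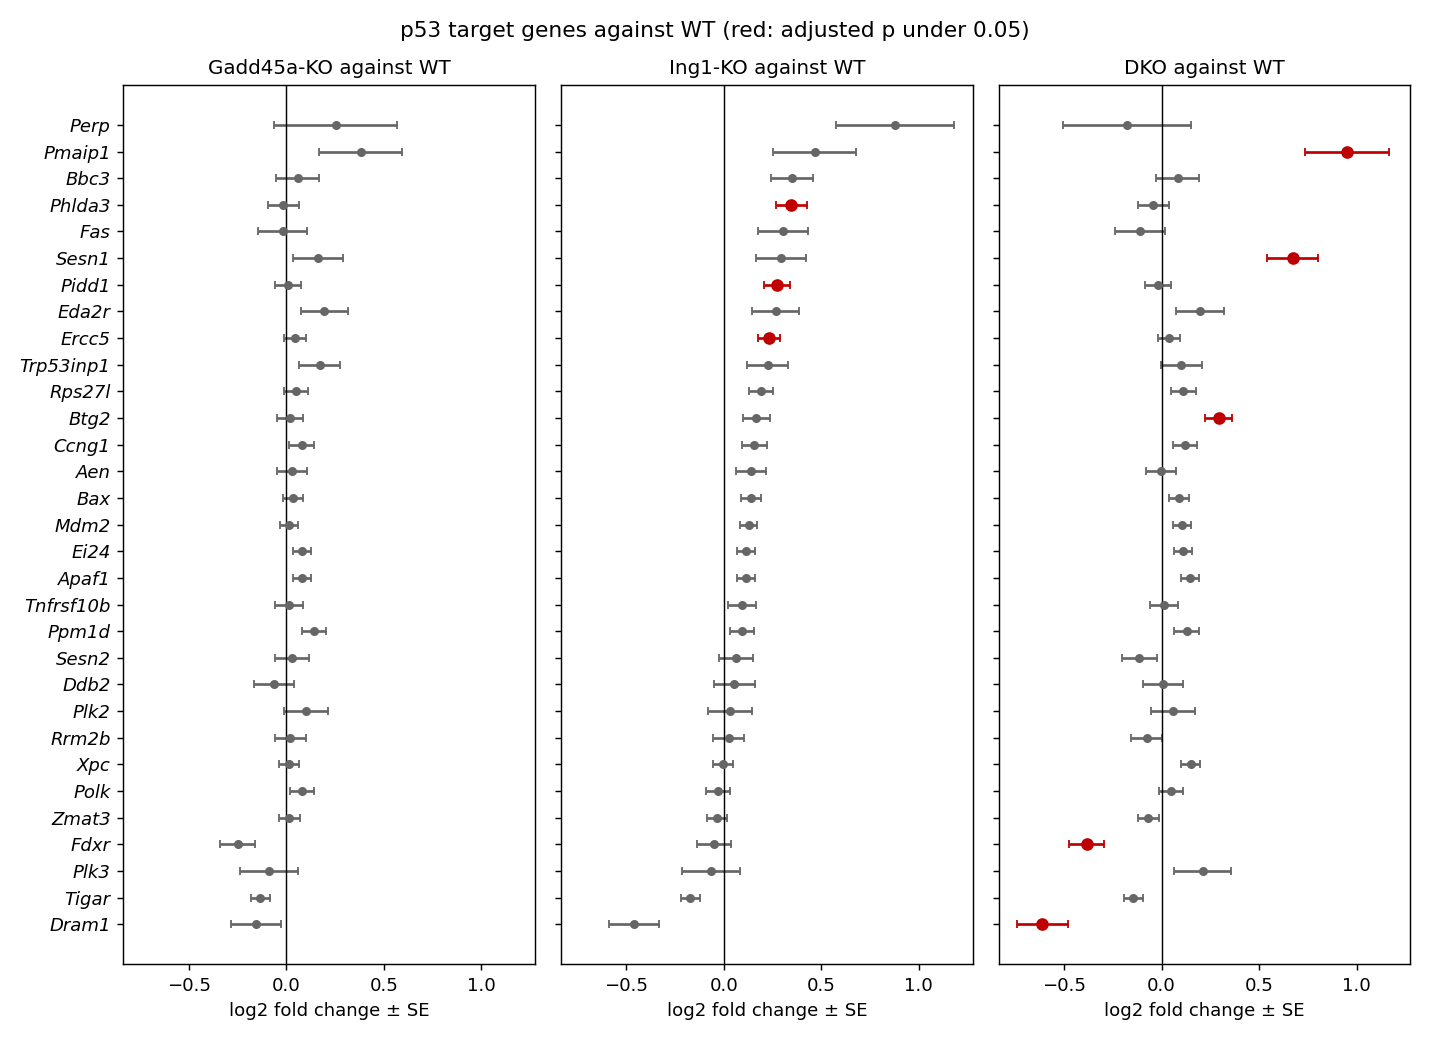
Log2 fold change (x axis, points, with SE bars) of each of the 31 genes in Gadd45a-KO, Ing1-KO and DKO against WT, ordered by the Ing1-KO value, with genes at an adjusted p under 0.05 in red. The Ing1-KO against WT values lie mostly right of 0 (24 of 31), with a median of 0.127.

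When the libraries labelled DKO were set against WT, Pmaip1, Sesn1 and Btg2 rose and Dram1 and Fdxr fell. These 5 of 31 are 16.1%, where 13% of all tested genes were called (5.94% higher and 7.09% lower), so the share was near the background. Pmaip1 (ENSMUSG00000024521), which encodes the BH3-only protein NOXA, was at 16.1, 18.8 and 16.4 CPM in WT, at 26.8, 19.7 and 20.2 CPM in Gadd45a-KO, at 17.6, 25.6 and 27.5 CPM in Ing1-KO and at 37.6, 37.8 and 23.8 CPM in DKO. Sesn1 (ENSMUSG00000038332), a sestrin that restrains mTORC1 signalling, was at 34.7, 37.9 and 38.0 CPM in WT, at 31.3, 45.3 and 47.4 CPM in Gadd45a-KO, at 46.4, 43.9 and 45.4 CPM in Ing1-KO and at 59.0, 53.7 and 63.6 CPM in DKO. Btg2 (ENSMUSG00000020423), an antiproliferative cofactor of mRNA deadenylation, was at 63.0, 65.3 and 68.9 CPM in WT, at 68.9, 61.9 and 69.1 CPM in Gadd45a-KO, at 71.8, 74.7 and 75.0 CPM in Ing1-KO and at 83.1, 86.7 and 72.0 CPM in DKO. For all 3, every DKO library exceeded every WT library, and DKO replicate 3 was the lowest of its group for Pmaip1 and Btg2. Log2 fold changes were 0.95 ± 0.214 for Pmaip1, 0.67 ± 0.129 for Sesn1 and 0.29 ± 0.0682 for Btg2, with adjusted p of 0.0205, 0.0128 and 0.0205.

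Dram1 (ENSMUSG00000020057) was at 107, 103 and 107 CPM in WT, at 83.9, 101 and 100.3 CPM in Gadd45a-KO, at 94.8, 72.6 and 63.5 CPM in Ing1-KO and at 68.6, 64.5 and 75.1 CPM in DKO. Fdxr (ENSMUSG00000018861), the mitochondrial ferredoxin reductase, was at 6.82, 6.05 and 6.33 CPM in WT, at 5.56, 5.17 and 5.43 CPM in Gadd45a-KO, at 6.70, 5.90 and 5.94 CPM in Ing1-KO and at 4.44, 4.88 and 5.36 CPM in DKO. Both were below the WT range in every DKO library and in every Gadd45a-KO library as well. The log2 fold changes were -0.61 ± 0.129 for Dram1 (adjusted p = 0.0168) and -0.38 ± 0.0912 for Fdxr (adjusted p = 0.0218). The median over the members was 0.059, against -0.003 over all genes, with 20 of 31 positive. In 11 members every DKO library lay above every WT library and in 5 below, or 35.5% and 16.1%, against 17.6% and 19.7% of all genes. Phlda3, Pidd1 and Ercc5, raised in Ing1-KO, overlapped the WT libraries here.

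Dram1 in Ing1-KO differed among the libraries: it was at 94.8 CPM in replicate 1, where adipocyte markers summed to 3217 CPM, and at 63.5 CPM in replicate 3, where they summed to 393 CPM. In WT and DKO, Dram1 was likewise lowest in the library with the lowest sum, over a narrower range of Dram1. In Gadd45a-KO it was not. In WT replicates 1 to 3 the sums were 3568, 1803 and 3264 CPM, with Dram1 at 107, 103 and 107 CPM. In Gadd45a-KO they were 1550, 1622 and 1233 CPM, with Dram1 at 83.9, 101 and 100.3 CPM. In DKO they were 419, 411 and 482 CPM, with Dram1 at 68.6, 64.5 and 75.1 CPM. Between the libraries labelled DKO and WT, 8 of 10 adipocyte markers fell (411 to 482 CPM in DKO) and 4 of 10 macrophage markers rose (1810 to 1821 CPM against 904 to 1037 CPM). Immediate early genes, a list of 16 induced by growth factors and by handling of cells, summed to 712, 749 and 642 CPM in DKO replicates 1 to 3. In WT they summed to 645 to 672 CPM. Of them Atf3 and Egr3 rose and Klf4 fell, 18.8% of the list against 13% of all genes. DKO replicate 2, with the highest sum, was also the highest library for Pmaip1 and Btg2. Sesn1 went the other way: among the DKO libraries it was lowest in replicate 2, at 53.7 CPM, and highest in replicate 3, at 63.6 CPM, where the sum was lowest. The part of these markers in the 5 calls was not tested. The count of 5 became 0 without WT replicate 1 or DKO replicate 1 and 2 without WT replicate 3 or DKO replicate 2. It was 7 without Gadd45a-KO replicate 1.

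**Figure D4:**
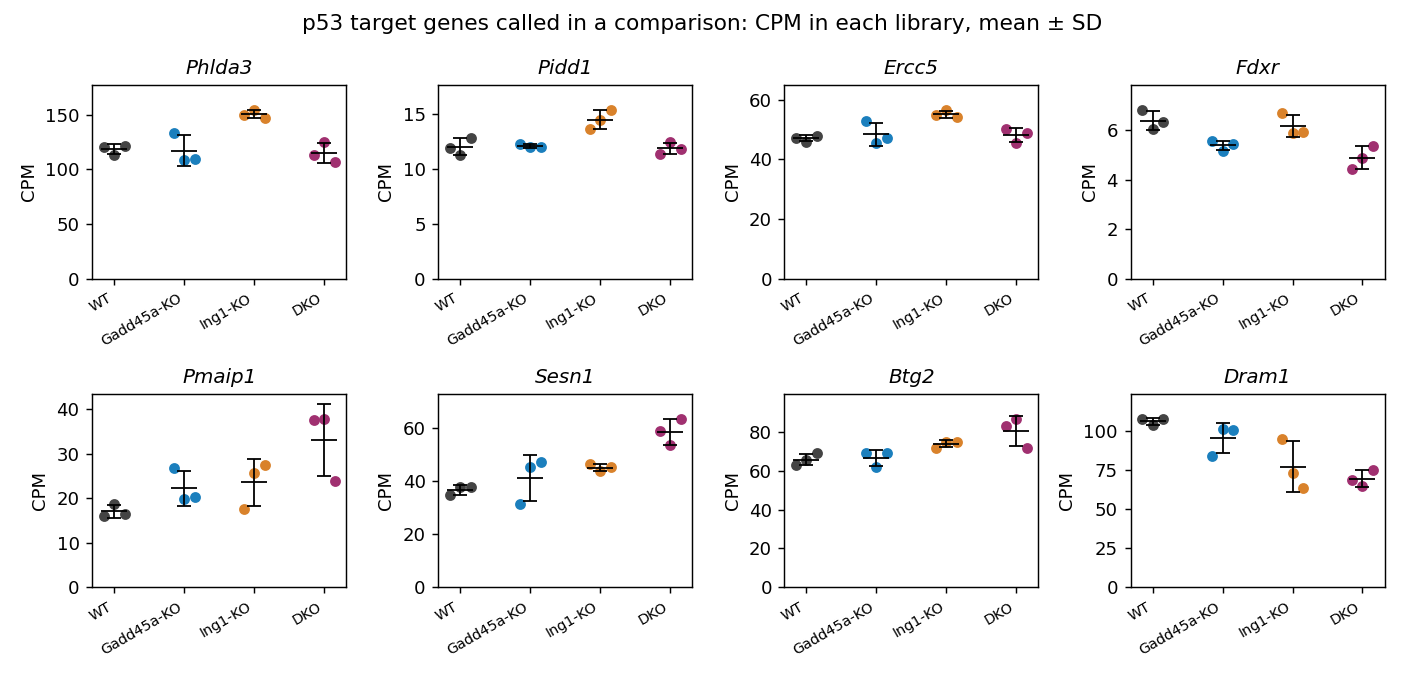
CPM of the 8 members called in at least 1 comparison, in each of the 12 libraries (points), with the mean and SD of each genotype (bars); each axis starts at 0. Phlda3, Pidd1 and Ercc5 have their highest mean in Ing1-KO, whereas Sesn1, Pmaip1 and Btg2 have their highest and Dram1 and Fdxr their lowest mean in the libraries labelled DKO.

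The libraries labelled Gadd45a-KO differed from WT in no member that passed the test. With edgeR 0 of 31 were called, as with DESeq2 and limma-voom, where 0.0124% of all genes were called (0.00619% higher and 0.00619% lower), and 3 members had an unadjusted p under 0.05 (5.48% of all genes did). These were Fdxr with a log2 difference of -0.25, Tigar with -0.13 and Ppm1d, the WIP1 phosphatase that switches off p53, with 0.14, each with an adjusted p of 0.88. All Gadd45a-KO libraries lay above all WT libraries in 3 members (9.68%) and below them in 3 (9.68%), against 4.6% and 7.61% of all genes. The median was 0.031 with 24 of 31 positive. Without replicate 1 of the libraries labelled Gadd45a-KO it was -0.009, so the sign of the median rested on that library. Of all 16163 genes tested, 2 were called in this comparison, and the 1 called higher was Gadd45a itself. A count of 0 among the 31 members is therefore not particular to them.

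Disruption of Ing1 can also be read on the second background, from the libraries labelled DKO against those labelled Gadd45a-KO, which share no library with Ing1-KO and WT. Here 0 of 31 members were called with edgeR (1.26% of all genes were, 0.662% higher and 0.594% lower), 3 with DESeq2 and 0 with limma-voom, and 5 had an unadjusted p under 0.05 (20% of all genes). These 5 were Sesn1 with a log2 difference of 0.51 ± 0.129 (adjusted p = 0.0737), Btg2 with 0.27 ± 0.0681 (0.0684), Dram1 with -0.45 ± 0.129 (0.0992), Pmaip1 with 0.57 (0.172) and Xpc, the damage sensor of global repair, with 0.13 (0.175). In the fit of all 12 libraries, 12 of the 31 members were positive on both backgrounds and 5 negative on both. Another 12 were positive only against WT and 2 negative only against WT. This split moved with the setting: on the second background 14 members were positive in that fit, and 11 to 24 over all settings run. Sesn1, Pmaip1 and Btg2 were positive and Dram1 negative on both, with Dram1 at -0.46 and -0.45. All of these were called in DKO against WT, which shares its WT libraries with the first background and its DKO libraries with the second. Their common sign therefore follows in part from how they were picked. Phlda3, Pidd1 and Ercc5 were near 0 on the second background. The count of called members was 1 without Gadd45a-KO replicate 1, Ing1-KO replicate 1 or 3 or DKO replicate 3. In 3 members (9.68%) the DKO libraries lay above those of Gadd45a-KO without overlap and in 1 (3.23%) below, against 12.4% and 13.6% of all genes. The median there was -0.007, and 0.076 without Gadd45a-KO replicate 1. Between these groups edgeR called 0 of 10 adipocyte and 0 of 10 macrophage markers. Without overlap, however, all 10 adipocyte markers were lower and 9 of 10 macrophage markers higher in DKO, and their part was not tested.

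The difference between the backgrounds was tested as an interaction, and 0 of 31 members passed with edgeR, DESeq2 or limma-voom, as did 0% of all genes. At an unadjusted p under 0.05 stood 5 members (13.6% of all genes): Phlda3 at -0.37, Perp at -1.31, Pidd1 at -0.30, Ercc5 at -0.24 and Tigar at 0.16, the lowest adjusted p among members being 0.262. A difference of the response to Ing1 disruption between backgrounds was thus not shown for any member.

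**Figure D5:**
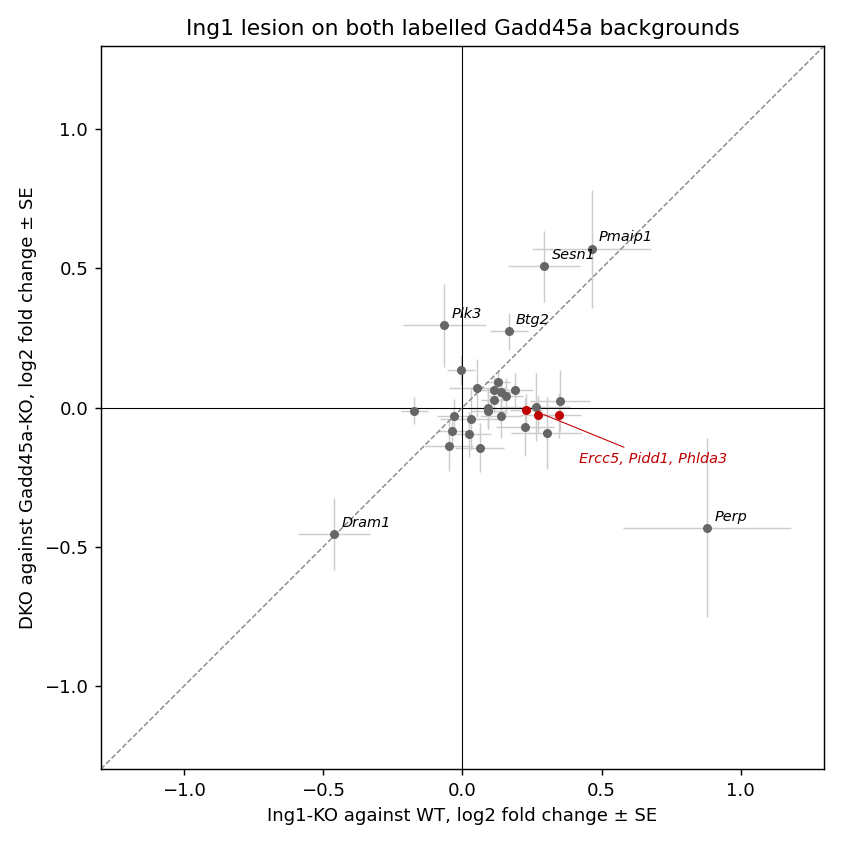
Log2 fold change of each of the 31 genes in Ing1-KO against WT (x axis) and in the libraries labelled DKO against those labelled Gadd45a-KO (y axis), with SE bars and the line of equal change dashed. Dram1, Sesn1, Pmaip1 and Btg2, picked as called in DKO against WT and so from libraries of both axes, have the same sign on both. Phlda3, Pidd1 and Ercc5 (red) lie right of 0 and near 0 on the y axis.

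The libraries labelled DKO were also compared with Ing1-KO, which asks what differs with the labelled Gadd45a mutation when Ing1 is disrupted in both. With edgeR, Phlda3, Pidd1, Ercc5 and Fdxr fell and no member rose, 12.9% of members, near the 11.7% of all genes called (5.91% higher and 5.76% lower). Log2 fold changes were -0.39 ± 0.0807 for Phlda3 (adjusted p = 0.0221), -0.29 ± 0.0656 for Pidd1 (0.0260), -0.33 ± 0.0912 for Fdxr (0.0409) and -0.19 ± 0.0564 for Ercc5 (0.0498). The Ing1-KO libraries of this comparison are those set against WT above, so the 3 shared genes are the same Ing1-KO values read a second time. Perp (ENSMUSG00000019851) was at 3.42, 2.21 and 3.07 CPM in WT, at 5.41, 2.33 and 2.57 CPM in Gadd45a-KO, at 4.39, 6.66 and 5.001 CPM in Ing1-KO and at 2.28, 2.96 and 2.45 CPM in DKO. It had the widest difference of any member, -1.06 ± 0.309 on the log2 scale, and an adjusted p of 0.0507. The death receptor gene Fas had a difference of -0.41 (adjusted p = 0.0577). DESeq2 called 7 members, adding Perp and Fas as lower and Sesn1 as higher. Perp was also called by the legacy quasi-likelihood fit, with only the libraries compared, and without Gadd45a-KO replicate 1 or 2. Members with an unadjusted p under 0.05 numbered 10 of 31 (32.2% of all genes). The groups did not overlap in 2 members higher (6.45%) and 6 lower (19.4%) in DKO, against 17.4% and 16.8% of all genes. The median was -0.048 against -0.015 over all genes. The count was 0 without Ing1-KO replicate 2 or DKO replicate 1, 1 without Ing1-KO replicate 1 or DKO replicate 2, 2 without WT replicate 3 or Gadd45a-KO replicate 3, and 8 without Gadd45a-KO replicate 1, with Perp, Fas and Bbc3 lower and Sesn1 higher besides the 4. Between these groups 6 of 10 adipocyte markers fell and 3 of 10 macrophage markers rose, and their part was not tested.

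In the edgeR fit of all 12 libraries, 12 calls fell on 8 members and the other 23 members were called in no comparison. Of these 23, DESeq2 called Perp and Fas in DKO against Ing1-KO and Apaf1 in DKO against WT. Other settings called some as well. In Ing1-KO against WT, Trp53inp1, Eda2r and Rps27l were called higher with only the libraries compared. Without Gadd45a-KO replicate 1, Bbc3, Eda2r, Perp and Rps27l were called higher there. None of the 12 calls held in all 12 fits that left out 1 library, and none changed direction. Among the uncalled death genes, Trp53inp1, which links p53 to autophagy, averaged 219 CPM in WT and, in Ing1-KO, 256 CPM, Zmat3, an RNA-binding splicing regulator, 164 and 159.7 CPM, Ei24 92.3 and 99.96 CPM and the nuclease Aen 93.9 and 103 CPM. Among the receptors and their effectors, Eda2r, the ectodysplasin A2 receptor, averaged 60.4 and 72.6 CPM, Tnfrsf10b, the TRAIL receptor, 45.2 and 48.3 CPM, Fas 21.9 and 27.0 CPM and the apoptosome scaffold Apaf1 83.1 and 89.8 CPM. These 8 genes had adjusted p between 0.183 and 0.757 in Ing1-KO against WT in the edgeR fit of all 12 libraries. In repair and nucleotide supply, a group that here includes Rps27l, Ddb2 averaged 4.25 and 4.41 CPM, Xpc 19.9 and 19.8 CPM and the translesion polymerase Polk 65.9 and 64.4 CPM. Rrm2b averaged 16.9 and 17.2 CPM and Rps27l 81.0 and 92.5 CPM. Plk2 and Plk3, the polo-like kinases that respond to stress, averaged 128 and 131 CPM and 11.4 and 10.9 CPM, Sesn2 79.2 and 82.7 CPM, Tigar 15.48 and 13.7 CPM and Ppm1d 12.1 and 12.9 CPM. In the libraries labelled DKO against WT the log2 differences ran from -0.18 to 0.95 over the 9 death genes outside the receptors, from -0.11 to 0.20 over the 5 receptors and caspase activators and from -0.08 to 0.15 over the 6 genes of repair and nucleotide supply. Exons of Ddb2 and Plk3 overlap those of Acp2 and Tctex1d4 on the opposite strand, and the library kit does not mark strand, so their reads cannot be fully told apart from those neighbours.

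Lists around the members were read in the same fit. Among p53 and its regulators (28 genes, 27 tested), Cdkn2a rose and the acetyltransferase gene Crebbp fell in Ing1-KO. That is 7.41% of those tested, against 4.32% of all genes. Cdkn2a, whose locus encodes the MDM2 inhibitor ARF as well as the CDK inhibitor p16, was at 42.2, 35.9 and 42.9 CPM in WT, at 42.8, 37.9 and 38.8 CPM in Gadd45a-KO, at 55.4, 62.0 and 57.7 CPM in Ing1-KO and at 37.5, 36.3 and 39.0 CPM in DKO. It had the shape of Phlda3, Pidd1 and Ercc5, with Ing1-KO above all other libraries: the log2 fold change was 0.53 against WT (adjusted p = 0.00487), and -0.64 from Ing1-KO to DKO (adjusted p = 0.0053). The counts do not tell the transcripts of the locus apart. In the libraries labelled DKO, Chek2, a kinase that activates p53 after damage, rose by 0.39 on the log2 scale against WT (adjusted p = 0.0174) and also by 0.39 against Ing1-KO (adjusted p = 0.0258). Called shares of this list were 3.7% against WT and 7.41% against Ing1-KO, where 13% and 11.7% of all genes were called.

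Of 30 further p53 targets, all tested, 3 rose and 2 fell in Ing1-KO against WT, or 16.7%, where 4.32% of all genes were called. In that comparison 21 were positive, and the median was 0.097, against 0.003 over all genes. Rprm, a mediator of arrest, rose by 0.99 (adjusted p = 0.00979) and the phosphatase gene Ptp4a3 by 0.40 (0.0343), whereas Ddit4, an inhibitor of mTORC1, fell by 0.37 (0.0271) and Ckap2 fell by 0.32 (0.0357). In the libraries labelled DKO against WT, Sat1, the polyamine acetyltransferase, rose by 0.49 (adjusted p = 0.0113) and Ddit4 fell by 0.45 (0.00739). No others were called there, so the share was 6.67%, against 13% of all genes. Ddit4 also fell by 0.45 against the libraries labelled Gadd45a-KO (adjusted p = 0.0239). It alone was called there, 3.33% of the list against 1.26% of all genes. Against Ing1-KO 2 rose, Sat1 and Ckap2, and 4 fell, among them Ak1 and Tob1. That is 20% of the list, against 11.7% of all genes.

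Cell cycle genes that p53 lowers through p21 (15 genes) were all negative in Ing1-KO against WT, with a median of -0.349. With edgeR 0 were called (4.32% of all genes were) and 13 had an unadjusted p under 0.05 (20.9% of all genes did). In 13 of 15 (86.7%) every Ing1-KO library lay below every WT library, against 12.5% of all genes. In the libraries labelled DKO against Ing1-KO, 7 of 15 rose (46.7%), where 5.91% of all genes were called higher, and the list median was 0.402. Among them Ccnb1 rose by 0.43 (adjusted p = 0.0283), Top2a by 0.45 (0.0283) and Bub1 by 0.49 (0.0348). The summed level of this list was 720.2 to 857 CPM in WT, 539 to 666 CPM in Ing1-KO and 791 to 876 CPM in the libraries labelled DKO. In Ing1-KO replicates 1 to 3 this sum was 539, 633 and 666 CPM, and Cdkn1a, which was not called, was at 468, 505 and 535 CPM. The same libraries held higher Cdkn2a, Phlda3, Pidd1 and Ercc5 values and lower Dram1 and Tigar values than WT. A link between the cell cycle sum and any of these genes was not tested.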

How the data were processed

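Poly(A) RNA of 12 libraries, grouped by the genotype in their labels, was read from deposited files of raw counts by Ensembl identifier. Per the submitters' processing notes, HTSeq 0.5.4, Bowtie2 2.1.0, TopHat2 2.0.9, FastQC and DESeq were used with mm9 and NCBIM37; the strand setting is not given in the sources used here. The 5 lines that name no gene (24.2% to 24.8% of a library) were left out, and reads mapping to several places are not counted. Symbols and exon lengths came from a later GENCODE annotation and matched 32919 of 37991 identifiers.

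Computed here were TMM factors (0.986 to 1.01), CPM, RPKM and edgeR 4.0.16 quasi-likelihood tests (R 4.3.3; filterByExpr, robust) fitted to the 4 genotype means over 12 libraries together. Benjamini-Hochberg adjustment ran over 16163 genes and calls are at adjusted p under 0.05. Adjusted p-values are from that fit unless a left-out library is named. The SE is the absolute log2 fold change over the square root of F. The steps were tested on simulated data. Replicates of a group differed beyond sampling noise. The members and lists were chosen with earlier results of these data known. Values per library are given for called members and for Mdm2, Bax, Bbc3 and Ccng1, and up to 4 called genes with the smallest adjusted p are named per related list and comparison; Perp and the regulator Cdkn2a were given in full after their values were seen. Alternatives were other scalings, no filter, DESeq2 1.42.0, limma-voom (limma 3.58.1), a replicate block, only the libraries compared, each library left out and, chosen after seeing the data, the legacy quasi-likelihood fit.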

Additional observations from a re-analysis of the deposited data

How the results depend on the processing

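The counts of called members depended on the processing more than their directions did: no call changed sign under any alternative run, and Gadd45a-KO against WT and the interaction gave 0 calls under each. For Ing1-KO against WT (3 calls) the count was 1 without the filter and 6 with only the libraries compared, and it ran from 0 to 8 when 1 library was left out. In DKO against WT (5 calls) it ran from 0 to 7, for DKO against Gadd45a-KO (0 calls) from 0 to 1 and for DKO against Ing1-KO (4 calls) from 0 to 8. DKO against Gadd45a-KO had 3 calls with DESeq2 and 1 with only the libraries compared. DKO against Ing1-KO had 2 calls without the filter and 7 with DESeq2. Where a group was left with 2 libraries, they were assumed to vary like the others. The causes were not tested.

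Replicate numbers do not pair these libraries: correlations of same-numbered libraries' deviations ran from -0.189 to 0.251, and 5 of 12 correlated best with their own number. With the replicate number as a block, calls numbered 0 in Ing1-KO against WT, 5 in DKO against WT, 0 in DKO against Gadd45a-KO and 2 in DKO against Ing1-KO.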
